A study of Rattus norvegicus with 32 samples.

Results

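The annexin genes described here are Anxa1, Anxa2, Anxa3, Anxa4, Anxa5, Anxa6, Anxa7, Anxa8 and Anxa11, 9 of the 32623 genes in the count tables of rat liver sinusoidal endothelial cells (LSECs), the fenestrated cells that line the liver's sinusoids. They were chosen by gene symbol, whatever their values, and each symbol was held by 1 gene. RNA was sequenced from 32 libraries of LSECs isolated from male rats on an iodixanol gradient, 22 of a carbon tetrachloride (CCl4) model and 10 of a thioacetamide (TAA) experiment. CCl4 and TAA are hepatotoxins whose repeated administration scars the liver. In the CCl4 model, Wistar Han rats inhaled CCl4 for 2 weeks (acute, n = 5), 6 weeks (fibrosis, n = 5) or 12 to 14 weeks (cirrhosis, n = 6), and were compared with healthy Wistar Han rats (n = 6). Drinking water held phenobarbital in the CCl4 model, and whether the healthy rats of this model drank it was not given in the sources used here. LSECs were isolated some days after the last dose of toxicant. The duration of the cirrhosis group came from the description of the study, since the labels of its libraries give none.

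The TAA experiment has 5 libraries labelled control and 5 labelled TAA control. Its design names healthy rats and rats with TAA cirrhosis after intraperitoneal injections, of the Sprague-Dawley strain, while the labels call all libraries Wistar Han and do not settle which group received TAA. These groups are therefore named as labelled, and a difference between them says only which labelled group was higher. Separate libraries were taken as separate rats, as the study counts them, although no label names the animal.

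Annexins are cytosolic proteins that bind phospholipid membranes when calcium rises, with a conserved core of repeats and a variable N-terminal part that sets their partners. Annexin A1 holds back cytosolic phospholipase A2 and, once outside the cell, signals through formyl peptide receptors to limit leukocyte entry. Annexin A2 pairs with S100a10 and holds plasminogen and its activator at the endothelial surface, and annexin A5 covers exposed phosphatidylserine and so hinders clotting. Annexins A1, A2, A5 and A6 also take part in the repair of torn plasma membranes, and annexins A7 and A11 bind the calcium sensor Pdcd6 and act in membrane fusion and vesicle traffic.

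Library totals ranged from 25646531 to 46464289 expected counts. The 9 LSEC marker genes found in the tables (10 were listed, Stab1, Stab2 and Lyve1 among them) were above 1 CPM (a count scaled to a common library size, the unit of all levels here) on average in every group, but their summed level was 14903 to 27100 CPM in healthy and 15086 to 19361 CPM in cirrhosis libraries, against 3353 to 4008 CPM in acute and 2350 to 3262 CPM in fibrosis libraries. Cdh5, the VE-cadherin of endothelial junctions and 1 of these markers, did not follow the sum, with 1293 ± 430.2 CPM in healthy, 1597 ± 336 CPM in acute, 1039.7 ± 123 CPM in fibrosis and 1506 ± 179.5 CPM in cirrhosis libraries (mean ± SD), while Stab1 was 4957 ± 1383, 149 ± 47.5, 163 ± 24.0 and 1177 ± 232 CPM. Acute and fibrosis libraries also held less of the summed immediate-early genes such as Fos and Jun, with 836 to 2190 CPM and 1756 to 2786 CPM against 27685 to 57159 CPM in healthy and 15964 to 34971 CPM in cirrhosis libraries. Macrophage markers summed to 54.7 to 144 CPM in acute, 26.4 to 183 CPM in fibrosis, 205 to 3007 CPM in healthy and 639 to 2504 CPM in cirrhosis libraries, with Timd4 at 0 in all acute and fibrosis libraries. The 8 hepatocyte markers summed to 87.5 to 780 CPM in acute and 1030 to 4289 CPM in fibrosis libraries, and varied among healthy libraries from 729 to 17538 CPM. The sources used here name no sequencing batch, and stage and batch cannot be told apart. In bulk LSECs, fewer cells of a type and less RNA per cell cannot be told apart either.

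**Figure D1:**
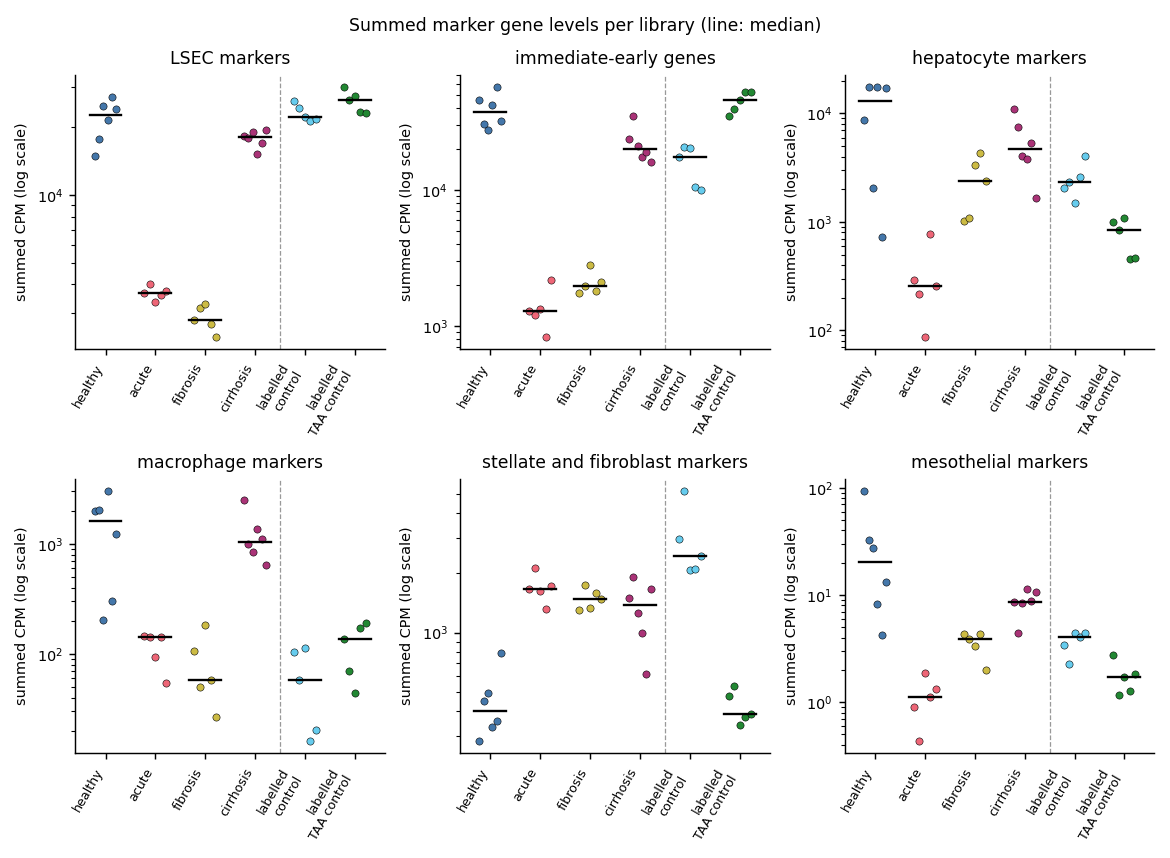
Summed levels of 6 marker lists in each library, in CPM on a log scale, by group, with a line at each group's median. The acute and fibrosis libraries lie below all healthy and cirrhosis libraries for LSEC markers and immediate-early genes, and the dashed line parts the CCl4 libraries from those of the TAA experiment, which were scaled separately.

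Throughout, a level is a library's count scaled to CPM with TMM factors, over the 22 CCl4 libraries or separately over the 10 TAA libraries, and a difference is the log2 fold change of limma-voom with its standard error (SE). A gene was called when its limma-voom p adjusted by Benjamini-Hochberg over all genes tested was under 0.05 and its fold change above 1.5. Gene lengths were not used here, so levels are compared between groups, for 1 gene or for the summed CPM of a list, and not between genes.

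Annexin genes moved in both directions at every stage of CCl4 injury. After 2 weeks, Anxa4 and Anxa7 were higher than in healthy LSECs and Anxa1, Anxa5, Anxa6 and Anxa11 lower, 2 and 4 of the 8 members tested, where 35.5% of all genes tested were called higher and 37.9% lower. In fibrosis, Anxa2, Anxa4 and Anxa7 were higher and Anxa6 and Anxa11 lower, 3 and 2 of 9 members, where 35.3% of all genes were called higher and 34.9% lower. In cirrhosis, Anxa1, Anxa2 and Anxa3 were higher and Anxa11 lower, 3 and 1 of 9 members, where 27.1% of all genes were called higher and 24.7% lower. With shares of this size over all genes, the counts of annexins called against healthy are no result by themselves. The comparisons with healthy LSECs share the same 6 healthy libraries.

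The stages were also compared with each other. Anxa1, Anxa2, Anxa5 and Anxa6 were higher in fibrosis than in the acute stage, 4 of the 8 members tested, and 0 were lower, where 10.2% of all genes were called higher and 0.732% lower, so that 93.3% of the calls over all genes were higher too. From fibrosis to cirrhosis, Anxa1, Anxa6, Anxa8 and Anxa11 were higher and Anxa7 lower, 4 and 1 of 9 members, where 34.3% of all genes were called higher and 29.5% lower, and with library size scaling the counts were 3 and 2. Against the acute stage, 6 members were higher in cirrhosis (Anxa1, Anxa2, Anxa5, Anxa6, Anxa8 and Anxa11) and 2 lower (Anxa4 and Anxa7), where 37.5% of all genes were called higher and 31.8% lower. The median difference of the members tested was -0.59 on the log2 scale for acute, 0.57 for fibrosis and 0.000832 for cirrhosis against healthy, while the median over all genes tested was -0.09, -0.03 and 0.07. The median was 0.51 from acute to fibrosis and 0.50 from fibrosis to cirrhosis, against 0.00428 and 0.04 over all genes. Against healthy, the acute median of the 8 members tested fell between Anxa1 (-1.28) and Anxa2 (0.09). The fibrosis and cirrhosis medians were the values of Anxa3 and Anxa4, and neither was called.

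The scaling of the healthy libraries weighed on these comparisons. Their TMM factors were 0.712 to 0.939, while those of the other CCl4 libraries were 0.989 to 1.176, and scaling by library size alone moved the median of all genes up by 0.41, 0.40 and 0.34 on the log2 scale in the comparisons of acute, fibrosis and cirrhosis with healthy. The share of calls that were higher then went from 48.4% to 58.2% in the acute stage, from 50.3% to 60.9% in fibrosis and from 52.2% to 71.3% in cirrhosis, and the members called went from 2 higher and 4 lower to 3 and 3 in the acute stage, from 3 and 2 to 5 and 2 in fibrosis, and from 3 and 1 to 3 and 0 in cirrhosis. In the comparison of cirrhosis with fibrosis that scaling moved the median by -0.11. DESeq2 size factors moved the median by at most 0.06 in any of the 7 comparisons.

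**Figure D2:**
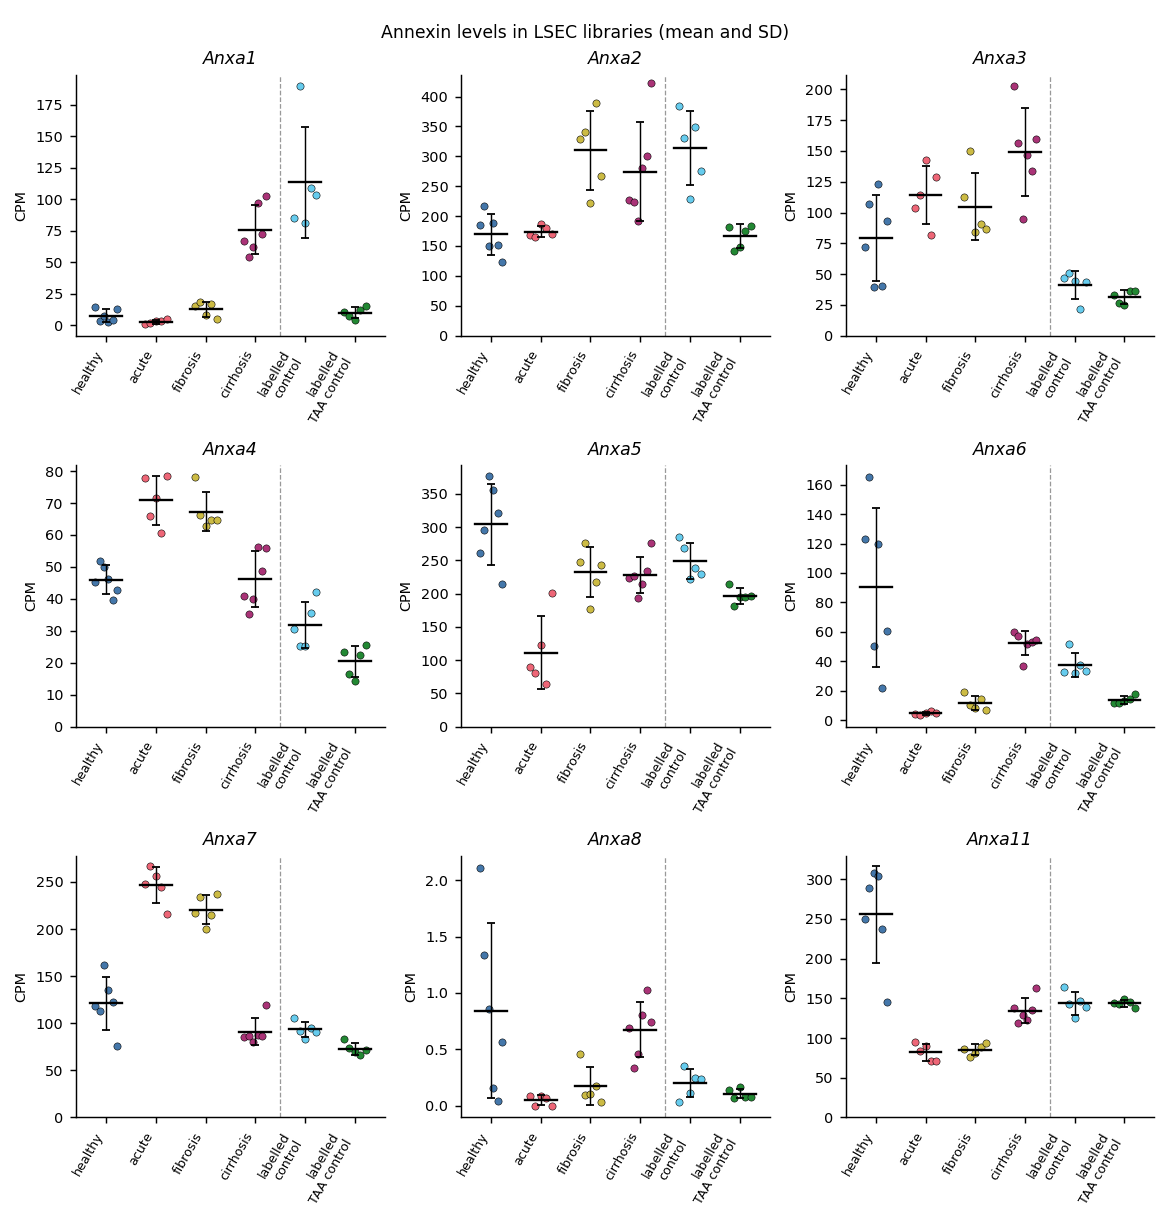
Levels of the 9 annexin genes in each library, in CPM, by group, with the mean and SD of each group as a line and bar, the TAA experiment to the right of the dashed line. Anxa1 lay between 54.0 and 103 CPM in cirrhosis and at most at 18.3 CPM in the other CCl4 libraries, while Anxa7 lay above 200 CPM only in the acute and fibrosis libraries.

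Promoters are shown for Anxa1 and Anxa2, the members that were higher in fibrosis than in the acute stage and higher in cirrhosis than in healthy LSECs, and for Anxa7, the member that was lower in cirrhosis than in fibrosis. They are the 250 bases before the gene start in RefSeq, 5′ to 3′ on the gene's strand, of the rat build GRCr8, which is not the build the reads were mapped to (Rnor_6.0). Capitals mark letters found by searching both strands for a TATA box (TATAAA), an AP-1 site (TGANTCA), a GC box (GGGCGG) and a CCAAT box (CCAAT), none of which overlaps another in the sequences shown. Anxa1 lies at chr1:227303733-227303982 on the minus strand, Anxa2 at chr8:78986002-78986251 on the plus strand and Anxa7 at chr15:3870790-3871039 on the plus strand.
Anxa1: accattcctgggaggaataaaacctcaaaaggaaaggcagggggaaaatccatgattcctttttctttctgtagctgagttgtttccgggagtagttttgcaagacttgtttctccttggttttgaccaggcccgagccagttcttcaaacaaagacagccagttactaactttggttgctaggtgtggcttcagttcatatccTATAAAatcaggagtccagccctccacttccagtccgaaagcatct
Anxa2: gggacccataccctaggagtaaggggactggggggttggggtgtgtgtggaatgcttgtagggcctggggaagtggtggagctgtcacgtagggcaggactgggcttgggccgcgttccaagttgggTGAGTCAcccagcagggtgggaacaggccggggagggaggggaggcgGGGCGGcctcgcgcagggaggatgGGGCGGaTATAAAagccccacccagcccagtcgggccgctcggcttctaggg
Anxa7: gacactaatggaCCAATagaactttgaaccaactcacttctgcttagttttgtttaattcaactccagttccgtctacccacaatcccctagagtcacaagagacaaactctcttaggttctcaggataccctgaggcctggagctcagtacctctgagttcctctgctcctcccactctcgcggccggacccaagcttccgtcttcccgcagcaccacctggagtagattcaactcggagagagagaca

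Of the 8 members with an entry in the promoter table (all but Anxa6), Anxa1 and Anxa2 held a TATA box, 46 to 41 and 45 to 40 bases before the start, as did 12.9% of the 33469 promoters of the same length. Anxa2 was the 1 member with an AP-1 site, 123 to 117 bases before the start, and 6.34% of all promoters held one at any position. A GC box was in 5 of the 8 members and in 30.5% of all promoters, and a CCAAT box in 2 members, Anxa4 and Anxa7, and in 34.0%. The share of G and C was 45.2% in the Anxa1 promoter and 50.8% in that of Anxa7, and 60.4% to 69.2% in the others.

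Anxa1 (ENSRNOG00000017469) had the largest difference of any member between cirrhosis and healthy LSECs. Its level in cirrhosis was 54.0 CPM in the lowest, 69.9 CPM in the median and 103 CPM in the highest library, while healthy libraries lay at 2.76, 6.07 and 14.5 CPM. All 6 cirrhosis libraries were above every healthy one, an 11.5-fold difference (log2 fold change 3.53, SE 0.36, limma-voom adjusted p = 5.94e-05). The fibrosis libraries held 15.3, 18.3, 8.11, 17.2 and 4.75 CPM, below all cirrhosis libraries, and cirrhosis was higher than fibrosis by 2.70 (limma-voom adjusted p = 8.5e-06). The acute libraries were the lowest, at 1.33, 1.63, 3.22, 3.39 and 4.83 CPM, and overlapped with the healthy ones.

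The rank of the Anxa1 levels was thus acute, healthy, fibrosis and cirrhosis, and its last step, from fibrosis to cirrhosis, was called under every alternative. The difference between fibrosis and healthy was not called (log2 fold change 0.89, 95% interval -0.20 to 1.98, limma-voom adjusted p = 0.127). It was called without fibrosis replicate 17 (1.22, limma-voom adjusted p = 0.0361) and with library size scaling (1.29, limma-voom adjusted p = 0.0369). The fall in the acute stage (-1.28, SE 0.52, limma-voom adjusted p = 0.0397) lost its call when any of healthy replicates 1, 3 or 6 or acute replicates 1, 2, 3 or 4 was left out, with adjusted p from 0.0525 to 0.108 in limma-voom, with library size scaling (-0.86, limma-voom adjusted p = 0.151) and without the low-count filter (-1.17, limma-voom adjusted p = 0.065). Fibrosis was higher than the acute stage by 2.22 (SE 0.51, limma-voom adjusted p = 0.0149).

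The partners of annexin A1 did not share its pattern across stages. Fpr2, the receptor of annexin A1, was scarce, with a mean of 0.867 CPM in healthy LSECs, and had at most 1 count in any acute or fibrosis library against 7.19 to 74.9 expected counts in healthy ones. Its cirrhosis mean was 0.522 CPM, and the difference from healthy of -0.71 was not called (limma-voom adjusted p = 0.336). Pla2g4a, the cytosolic phospholipase A2 that annexin A1 holds back, was higher than in healthy LSECs at all 3 stages, by 1.33, 1.63 and 1.68 in acute, fibrosis and cirrhosis (limma-voom adjusted p = 0.00456, 0.000791 and 0.000516). S100a11, which binds the N-terminal part of annexin A1, was called in no comparison of the CCl4 model, with differences from healthy of -0.76, 0.00693 and -0.41 (limma-voom adjusted p = 0.142, 0.99 and 0.416).

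With TMM factors, Anxa2 (ENSRNOG00000010362) was at its healthy level in the acute stage within the error and higher afterwards. Acute libraries held 169, 165, 186, 180.0 and 170.4 CPM, within the healthy range of 123 to 217 CPM (median 169 CPM), and the difference was 0.09 (95% interval -0.25 to 0.44, limma-voom adjusted p = 0.596). Across the alternatives this difference ran from -0.05 to 0.51, under the fold threshold, and was not called. In fibrosis the libraries held 329, 341, 222, 389.6 and 267 CPM. Each was above all healthy libraries, with a difference of 0.93 (SE 0.19, limma-voom adjusted p = 0.000702). Cirrhosis libraries lay at 191, 253 and 422 CPM (lowest, median and highest) and overlapped with both the healthy and the fibrosis ones. Their difference from healthy was 0.68 (SE 0.20, limma-voom adjusted p = 0.0122), which went under the fold threshold without cirrhosis replicate 6, the library with 422 CPM (0.54), or without healthy replicate 6, that with 123 CPM (0.58). The difference between cirrhosis and fibrosis was not called (-0.20, 95% interval -0.64 to 0.24, limma-voom adjusted p = 0.380). Of the stellate cell and fibroblast markers, Col1a1 and Acta2 were at 47.5 ± 23.6 and 26.1 ± 16.8 CPM in fibrosis, against 10.1 ± 4.06 and 0.998 ± 0.492 CPM in healthy and 1.49 ± 0.515 and 2.11 ± 1.80 CPM in acute LSECs, while Reln, at 1678 ± 292 CPM in acute and 1377 ± 159.9 CPM in fibrosis libraries, made up most of the sum of that list in both (1315 to 2132 CPM and 1300.1 to 1745 CPM). Other markers of the list did not share the rise of these means, with Col3a1 at 22.8 ± 9.75 CPM in fibrosis against 223 ± 136 CPM in healthy, Lrat at 3.83 ± 1.04 against 31.9 ± 30.2 CPM, Des at 4.13 ± 2.32 against 9.26 ± 2.35 CPM and Pdgfrb at 8.05 ± 5.17 against 7.24 ± 3.19 CPM. In cirrhosis, the means of all the markers of this list named here were above the healthy ones. Col3a1 was at 898 ± 366 CPM, Lrat at 83.1 ± 34.4 CPM, Des at 12.7 ± 3.29 CPM and Pdgfrb at 41.1 ± 14.8 CPM. Col1a1 and Acta2 were at 50.9 ± 49.9 and 7.86 ± 2.93 CPM. Reln was at 208 ± 67.3 CPM, against 167 ± 34.7 CPM in healthy LSECs. The part of stellate cells and fibroblasts in the level of Anxa2 was not tested.

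S100a10, which forms a complex with annexin A2, was lower than healthy in the acute stage and higher in cirrhosis. Its mean level was 123 ± 54.1 CPM in healthy LSECs (SD, n = 6), 67.0 ± 12.5 CPM in acute (n = 5), 138 ± 10.9 CPM in fibrosis (n = 5) and 233 ± 71.6 CPM in cirrhosis (n = 6). The differences from healthy were -0.76 and 0.98 in acute and cirrhosis (limma-voom adjusted p = 0.0167 and 0.00747), and the former lost its call without healthy replicate 3, without acute replicate 2 or with library size scaling. Ahnak, a large scaffold protein that the annexin A2 complex brings to the plasma membrane, went the same ways, with -0.97 in acute and 1.60 in cirrhosis (limma-voom adjusted p = 0.00239 and 0.000193). The acute difference of Ahnak was -0.56 with library size scaling (limma-voom adjusted p = 0.0568). Plat, the tissue plasminogen activator, was named after its values were seen. It fell from 203 ± 44.8 CPM in healthy to 22.9 ± 3.43 CPM in acute and 35.9 ± 10.4 CPM in fibrosis and was 977 ± 404 CPM in cirrhosis, a difference from healthy of 2.22 (SE 0.24, limma-voom adjusted p = 6.94e-05).

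Anxa5 (ENSRNOG00000014453) was lower on average in the acute stage than at any other. The acute libraries held 89.0, 79.9, 122, 64.4 and 201 CPM, while healthy libraries lay between 214 and 377 CPM (median 309 CPM). Acute replicate 8, with 201 CPM, stood above the other acute libraries but below all healthy ones, and the difference was -1.51 (SE 0.27, limma-voom adjusted p = 0.000237). In fibrosis the level was back at 248, 276, 177, 218 and 243 CPM, 2.37-fold above the acute stage (1.25, SE 0.27, limma-voom adjusted p = 0.0114), and in cirrhosis at 193 to 277 CPM (median 225 CPM). Acute replicate 8 lay above the lowest fibrosis and the lowest cirrhosis library. Neither stage was called against healthy, with differences of -0.31 in fibrosis (limma-voom adjusted p = 0.101), which turned to 0.08 with library size scaling, and -0.39 in cirrhosis (limma-voom adjusted p = 0.0476, under the fold threshold). Fibrosis and cirrhosis differed by -0.02 (95% interval -0.28 to 0.24).

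Anxa6 (ENSRNOG00000010668), which acts in endocytosis and cholesterol handling, had the largest fall of the members. Its acute libraries held 3.97, 3.65, 4.94, 6.03 and 4.48 CPM and its fibrosis libraries 18.8, 10.4, 8.08, 14.0 and 7.0 CPM. All were below the lowest healthy library, although healthy LSECs were themselves uneven, from 21.8 CPM in replicate 5 and 50.5 CPM in replicate 3 to 165 CPM in replicate 2 (median 90.1 CPM). The differences from healthy were -3.98 in acute (SE 0.56, limma-voom adjusted p = 3.96e-05) and -2.68 in fibrosis (SE 0.53, limma-voom adjusted p = 0.000594). The cirrhosis libraries lay between 37.0 and 60.1 CPM (median 53.9 CPM), above all acute and fibrosis libraries and inside the healthy range. Cirrhosis was higher than fibrosis by 2.23 (SE 0.23, limma-voom adjusted p = 2.03e-06). Its difference from healthy was not called (-0.50, 95% interval -1.39 to 0.39, limma-voom adjusted p = 0.312), except that without healthy replicate 5 the gene was called lower (-0.87, limma-voom adjusted p = 0.0207). Fibrosis and acute libraries did not overlap (1.34, limma-voom adjusted p = 0.0131), but that call was lost in 1 fit over the 4 CCl4 groups (1.26, limma-voom adjusted p = 0.15).

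Healthy replicates 3 and 5 had the fewest macrophage transcripts of the healthy group, with marker sums of 205 and 303 CPM against 1229 to 3007 CPM in the other 4, and the fewest hepatocyte transcripts, with 2051 and 729 CPM against 8723 to 17538 CPM. They had the lowest Anxa6 and, at 39.5 and 40.1 CPM, also the lowest Anxa3 of the healthy libraries. Acute libraries had macrophage sums of 54.7 to 144 CPM and hepatocyte sums of 87.5 to 780 CPM. Their mean Anxa6 was 4.62 CPM against 90.1 CPM in healthy libraries, while their mean Anxa3 was 114 CPM against 79.2 CPM. Fibrosis libraries had macrophage sums of 26.4 to 183 CPM and hepatocyte sums of 1030 to 4289 CPM. Mean Anxa6 was 11.7 CPM and mean Anxa3 105 CPM in that stage. The part of macrophages and hepatocytes in the levels of Anxa6 and Anxa3 was not tested.

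Dysf and Myof, dysferlin and its relative myoferlin, which work with annexins in membrane repair, moved in opposite directions. Dysf was 822 ± 194 CPM in healthy, 37.1 ± 9.62 CPM in acute, 40.9 ± 6.62 CPM in fibrosis and 353 ± 25.1 CPM in cirrhosis LSECs. Its differences from healthy were -4.45, -4.24 and -1.18 (limma-voom adjusted p = 7.26e-09, 4.71e-09 and 0.000193). Myof was 19.0 ± 7.39 CPM in healthy, 112 ± 39.0 CPM in acute, 101 ± 11.5 CPM in fibrosis and 45.5 ± 10.8 CPM in cirrhosis LSECs, with differences of 2.63, 2.57 and 1.33 (limma-voom adjusted p = 9.93e-06, 3.51e-06 and 0.00141).

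Anxa4 (ENSRNOG00000018159), a membrane-bound annexin of secretory and epithelial cells, was higher in the acute and fibrosis stages and, with TMM factors, back at its healthy level in cirrhosis. Acute libraries held 77.8, 65.9, 71.5, 60.8 and 78.6 CPM and fibrosis libraries 78.1, 66.4, 62.8, 64.6 and 64.6 CPM. All 10 were above the healthy libraries, which lay between 39.8 and 52.0 CPM (median 45.7 CPM). The differences were 0.66 in acute (SE 0.13, limma-voom adjusted p = 0.000678) and 0.62 in fibrosis (SE 0.12, limma-voom adjusted p = 0.000516). Both lay close to the fold threshold, and the fibrosis difference went under it without healthy replicate 5 (0.56), healthy replicate 6 (0.55) or fibrosis replicate 12 (0.58), and in 1 fit over the 4 CCl4 groups (0.55). Cirrhosis libraries held 35.2 to 56.2 CPM (median 44.9 CPM), with a difference from healthy of 0.000832 (95% interval -0.32 to 0.32). Across the alternatives the latter ran from -0.06 to 0.34 and was not called. The cirrhosis libraries did not overlap with the fibrosis libraries, but that difference of -0.56 was under the fold threshold (limma-voom adjusted p = 0.00138), and past it with library size scaling (-0.67) or without cirrhosis replicate 4 or 6 or fibrosis replicate 15 (-0.59, -0.62 and -0.59). Cholangiocyte markers, epithelial genes of the bile ducts, summed to 35.9 to 106 CPM in acute, 7.87 to 108 CPM in fibrosis, 1.97 to 27.1 CPM in healthy and 7.34 to 33.9 CPM in cirrhosis libraries, and most of the acute sum was Spp1 (79.5 ± 29.6 CPM in acute and 0.380 ± 0.139 CPM in healthy). Krt19, Krt7, Sox9 and Epcam of the same list were lower on average in acute than in healthy libraries, at 0.0209 against 5.31 CPM, 0.125 against 2.81 CPM, 0.0155 against 0.373 CPM and 0.336 against 0.559 CPM. Their part in the level of Anxa4 was not tested.

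Anxa3 (ENSRNOG00000002045), an annexin of neutrophils and of growing endothelium, increased in cirrhosis. The cirrhosis libraries lay at 94.4, 152 and 203 CPM (lowest, median and highest) and the healthy ones at 39.5, 82.9 and 123 CPM, with some overlap. The difference was 1.02 (SE 0.30, limma-voom adjusted p = 0.0115). Acute libraries held 104, 114, 143, 81.5 and 129 CPM and fibrosis libraries 112, 149.6, 84.2, 90.9 and 86.9 CPM, and both overlapped with healthy. Their differences of 0.67 (limma-voom adjusted p = 0.0721) and 0.57 (limma-voom adjusted p = 0.128) were not called. With library size scaling both were, at 1.08 and 0.96 (limma-voom adjusted p = 0.00821 and 0.0202), and the acute difference also when healthy replicate 2, 4 or 6 or acute replicate 4 was left out, without the low-count filter and in 1 fit over the 4 CCl4 groups. From fibrosis to cirrhosis the difference was 0.50 and under the fold threshold (limma-voom adjusted p = 0.0313), and 0.64 and past it without cirrhosis replicate 3 or fibrosis replicate 13. Neutrophil markers summed to 3.85 to 45.6 CPM in healthy and 2.79 to 14.6 CPM in cirrhosis libraries. The healthy sum was mostly Csf3r, at 13.5 ± 15.1 CPM against 4.32 ± 3.40 CPM in cirrhosis, while the other 7 markers had higher means in cirrhosis, among them S100a8 at 1.42 ± 0.664 against 0.351 ± 0.278 CPM and S100a9 at 2.59 ± 1.3 against 0.536 ± 0.635 CPM. The part of neutrophils in the level of Anxa3 was not tested.

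Anxa7 (ENSRNOG00000007136), known as synexin for its role in the fusion of secretory granules, was the member with the clearest rise in the early stages. Its acute libraries held 248, 267, 256, 245 and 216 CPM and its fibrosis libraries 217, 234, 200.3, 215 and 237 CPM. Every one lay above the healthy libraries, which ranged from 75.4 to 162 CPM (median 120.3 CPM). Acute was higher than healthy by 1.09 (SE 0.17, limma-voom adjusted p = 9.12e-05) and fibrosis by 0.97 (SE 0.17, limma-voom adjusted p = 0.000225). The difference between these stages was not called (-0.08, 95% interval -0.23 to 0.08). In cirrhosis the level dropped to 79.5 to 119.5 CPM (median 86.0 CPM), a fall of 2.45-fold from fibrosis (-1.29, SE 0.10, limma-voom adjusted p = 2.12e-07). Against healthy it was -0.38 (95% interval -0.77 to 0.00589, limma-voom adjusted p = 0.0838).

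Anxa11 (ENSRNOG00000010984), which tethers RNA granules and takes part in vesicle traffic, was lower than in healthy LSECs at all stages. The acute libraries held 94.7, 83.3, 89.9, 71.4 and 71.4 CPM and the fibrosis libraries 86.2, 76.2, 81.2, 88.3 and 93.7 CPM, all below the healthy libraries at 146 to 308 CPM (median 269 CPM). The differences were -1.57 in acute (SE 0.19, limma-voom adjusted p = 1.15e-05) and -1.48 in fibrosis (SE 0.18, limma-voom adjusted p = 1.58e-05), and between the stages 0.14 (95% interval -0.07 to 0.35). Cirrhosis libraries lay higher, at 119 to 163 CPM (median 132 CPM), above all fibrosis libraries (0.65, SE 0.09, limma-voom adjusted p = 2.28e-05), a difference of 0.55 and under the fold threshold with library size scaling. They remained below the healthy level (-0.89, SE 0.19, limma-voom adjusted p = 0.00181), with an overlap only at healthy replicate 6. With that scaling the latter difference was -0.54 and under the fold threshold.

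Among the binding partners of annexins A7 and A11, Pdcd6, the calcium sensor that both bind, was called in none of the 7 comparisons, with differences from healthy of 0.34, 0.35 and 0.44 in acute, fibrosis and cirrhosis (limma-voom adjusted p = 0.085, 0.0707 and 0.0502). Sri, the calcium-binding protein sorcin that pairs with annexin A7, fell from 102 ± 16.3 CPM in healthy to 20.5 ± 3.41 CPM in acute and 17.1 ± 1.79 CPM in fibrosis LSECs and was 82.6 ± 7.49 CPM in cirrhosis. Its differences from healthy were -2.27 and -2.49 (limma-voom adjusted p = 1.12e-07 and 3.1e-08) and, in cirrhosis, -0.28 (limma-voom adjusted p = 0.0891). S100a6, which binds annexin A11, was lower in the acute stage (-2.61, limma-voom adjusted p = 0.000335) and was not called in fibrosis or cirrhosis against healthy (-0.80 and -0.58, limma-voom adjusted p = 0.204 and 0.225).

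Anxa8 (ENSRNOG00000060949), which acts at late endosomes, was barely detected. Its 32 libraries held between 0 and 63 counts. Healthy libraries ranged from 0.0358 to 2.11 CPM (median 0.714 CPM), cirrhosis libraries from 0.338 to 1.02 CPM (median 0.715 CPM), acute libraries held 0 to 3 counts and fibrosis libraries 1 to 16 counts. The gene had too few counts to be tested between acute and healthy, acute and fibrosis, or the groups of the TAA experiment. Cirrhosis was higher than fibrosis (2.21, SE 0.54, limma-voom adjusted p = 0.0024) and than the acute stage (3.88, SE 0.58, limma-voom adjusted p = 4.45e-05), values that depend on the prior count of the fit. Against healthy, the fibrosis difference of -1.77 was not called (limma-voom adjusted p = 0.13), while it was -2.23 and called with edgeR's quasi-likelihood test (adjusted p = 0.0334) and DESeq2 (adjusted p = 0.0156), and -2.42 without healthy replicate 5 (limma-voom adjusted p = 0.014). Lymphocyte markers also had their lowest sums in acute libraries, at 0.207 to 1.91 CPM against 13.6 to 197 CPM in healthy ones, and mesothelial markers at 0.436 to 1.89 CPM against 4.22 to 92.8 CPM, and their part in the levels of Anxa8 was not tested.

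**Figure D3:**
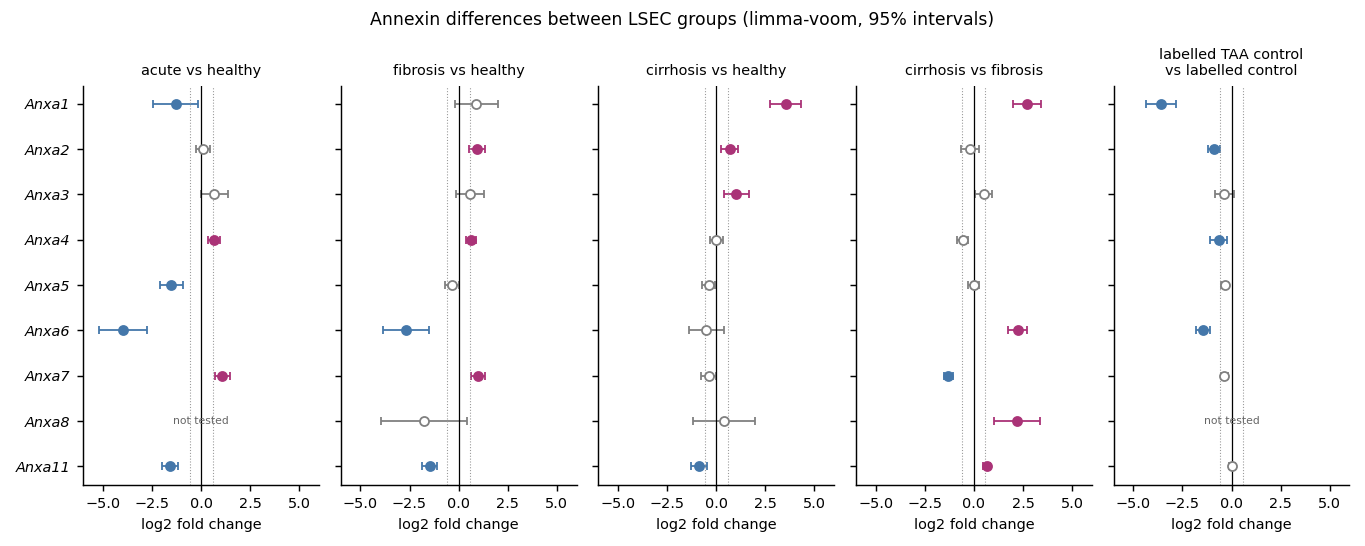
Differences of the 9 annexin genes in 5 comparisons, as log2 fold changes with 95% intervals, filled where called (purple higher, blue lower, dotted lines at a fold change of 1.5). Anxa6 fell by 3.98 in acute and 2.68 in fibrosis against healthy and was 2.23 higher in cirrhosis than in fibrosis, while Anxa5 in fibrosis against healthy, at -0.31 and not called, turned to 0.08 with library size scaling.

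The levels of the 9 genes summed to 1074 ± 193 CPM in healthy (SD, n = 6), 807 ± 70.0 CPM in acute (n = 5), 1045 ± 127 CPM in fibrosis (n = 5) and 1052 ± 174 CPM in cirrhosis LSECs (n = 6). Members with high CPM weigh most in these sums. Healthy means were 304 CPM for Anxa5 and 256 CPM for Anxa11, but 7.64 CPM for Anxa1 and 0.844 CPM for Anxa8. Over the 22 CCl4 libraries, the levels of some members ran against each other. The log2 CPM of Anxa6 and Anxa7 had a Pearson r of -0.82, those of Anxa1 and Anxa7 of -0.68, and those of Anxa6 and Anxa11 of 0.81. These values describe libraries that fall into 4 groups and share their scaling, and carry no test.

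The genes whose levels followed a member most closely over the 22 CCl4 libraries were sought among 8540 genes by Pearson r of log2 CPM, again as a description with no test. Anxa1 was followed by Akap13 (r = 0.95), Mgp (0.94) and Creb5 (0.92). Anxa2 had looser companions in Sulf1 (0.81), Cryab (0.78) and Tagln (0.76), as had Anxa3 in Pla2g4a (0.75), Blnk (0.71) and Ptprj (0.71). Anxa4 was nearest to Cars (0.94), Camkk2 (0.93) and Anapc16 (0.93), and Anxa5 to Lmcd1 (0.95), Csrnp1 (0.93) and Dusp8 (0.88). The closest fits were those of Anxa6 with Spint2, Hnf4a and Ptprs (0.98, 0.98 and 0.97), of Anxa7 with Arl2bp, Rrp9 and Rrp7a (0.98 each) and of Anxa11 with Dgcr6, Fscn1 and Sirt2 (0.98, 0.98 and 0.97). For Anxa8 the nearest were Rassf5 (0.91), Myo1g (0.90) and S100a4 (0.89).

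Of the 19 annexin partner genes listed, 18 were found in the tables and Fpr1 among them was never tested. Against healthy, 3 of 17 tested were higher and 11 lower in the acute stage, 4 and 7 of 17 in fibrosis, and 7 and 3 of 17 in cirrhosis, where the shares called higher and lower over all genes were 35.5% and 37.9%, 35.3% and 34.9%, and 27.1% and 24.7%. From fibrosis to cirrhosis, 8 of 16 were higher and 2 lower, where 34.3% and 29.5% of all genes were. These counts are no result by themselves. The median difference of the partners from healthy was -0.97, -0.59 and 0.10 at the 3 stages, and 0.49 from fibrosis to cirrhosis, against -0.09, -0.03, 0.07 and 0.04 over all genes.

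**Figure D4:**
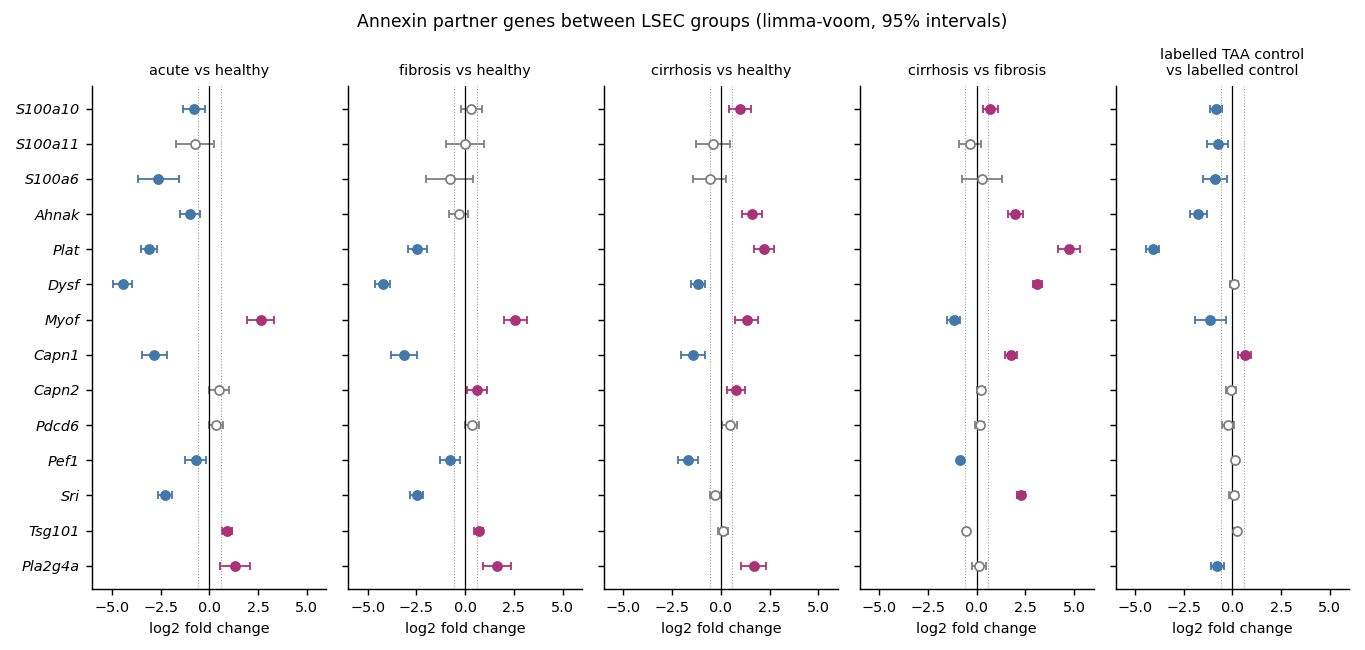
Differences of 14 annexin partner genes in 5 comparisons, as log2 fold changes with 95% intervals, filled where called (purple higher, blue lower, dotted lines at a fold change of 1.5). Plat, Ahnak and S100a10 were called lower in acute and higher in cirrhosis against healthy, with S100a10 and Ahnak no longer called in acute under library size scaling, and Dysf and Sri were called lower in acute and fibrosis.

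In the TAA experiment, 4 of the 8 members tested were called, and each was lower in the libraries labelled TAA control than in those labelled control. They were Anxa1, Anxa2, Anxa4 and Anxa6, and 0 members were higher, where 12.7% of all genes tested were called higher and 14.9% lower. The median difference of the members was -0.51, against 0.03 over all genes. Anxa1 again had the largest difference, with 85.1, 189.7, 81.6, 109 and 104 CPM in the libraries labelled control and 10.7, 7.81, 4.11, 12.5 and 15.1 CPM in those labelled TAA control. The groups were far apart (-3.59, SE 0.34, limma-voom adjusted p = 2.93e-05).

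Anxa6 was also separate between the labelled groups, with 32.3, 51.7, 32.1, 37.5 and 33.4 CPM in control and 11.5, 11.5, 13.1, 14.5 and 17.6 CPM in TAA control libraries (-1.46, SE 0.16, limma-voom adjusted p = 7.04e-05). Anxa2 was 384, 331, 228, 349 and 276 CPM against 182, 142, 148, 174 and 184 CPM, with no overlap (-0.90, SE 0.14, limma-voom adjusted p = 0.000468). The groups overlapped for Anxa4, which held 30.7, 25.4, 25.1, 35.7 and 42.1 CPM in control and 23.4, 16.4, 14.3, 22.3 and 25.6 CPM in TAA control libraries (-0.66, SE 0.19, limma-voom adjusted p = 0.0148). That difference went under the fold threshold without the labelled control replicate 5 (-0.55) or the labelled TAA control replicate 13 (-0.53). Anxa5 and Anxa7 did not overlap either but stayed under the fold threshold, at -0.34 and -0.36 (limma-voom adjusted p = 0.00595 and 0.00325).

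Anxa3 and Anxa11 were not called in the TAA experiment. Anxa3 differed by -0.37 (95% interval -0.85 to 0.12, limma-voom adjusted p = 0.19). For Anxa11, with means of 144 ± 14.2 and 144 ± 4.34 CPM (SD, n = 5 each), the difference was 0.00685 (95% interval -0.15 to 0.17), and its sign turned with library size scaling (-0.03) and with DESeq2 size factors (-0.01). The 9 members summed to 1024 ± 129 CPM in the libraries labelled control and 655 ± 43.3 CPM in those labelled TAA control.

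Of the 16 annexin partners tested in the TAA experiment, 7 were lower in the libraries labelled TAA control and 2 higher, where 14.9% of all genes were called lower and 12.7% higher. The median difference of the partners was -0.15, against 0.03 over all genes. Plat was 1220.1 ± 111 CPM in control and 72.5 ± 15.2 CPM in TAA control libraries (-4.09, SE 0.15, limma-voom adjusted p = 2.31e-07). Ahnak and S100a10 differed by -1.75 and -0.86 (limma-voom adjusted p = 6.48e-05 and 0.00057), while Dysf and Sri differed by 0.07 and 0.06 (limma-voom adjusted p = 0.552 and 0.697). Of the annexin A1 partners, Pla2g4a and S100a11 were also called lower, by -0.78 and -0.77 (limma-voom adjusted p = 0.00164 and 0.0249). S100a11 lost its call without the labelled control replicate 4 or the labelled TAA control replicate 12 or 13. Stellate cell and fibroblast markers summed to 2079 to 5178 CPM in the libraries labelled control and 343 to 536 CPM in those labelled TAA control, with Col1a1 at 209 ± 50.02 and 8.29 ± 4.79 CPM and Acta2 at 34.4 ± 30.8 and 0.423 ± 0.306 CPM. Hepatocyte markers summed to 1480 to 4011 CPM and 450 to 1098 CPM in these groups. Immediate-early genes summed to 10069 to 20540 CPM in the libraries labelled control and 35014 to 52688 CPM in those labelled TAA control. The part of that difference in the levels of the members was not tested. In the CCl4 model the stellate and fibroblast list was 283 to 784 CPM in healthy and 616 to 1906 CPM in cirrhosis libraries, with Col1a1 at 10.1 ± 4.06 and 50.9 ± 49.9 CPM. The part of such cells in the levels of Anxa1 and Anxa2 was not tested.

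The labelled TAA control replicates 14 and 15 resembled each other most, with a chi-square over genes of 2.96 per degree of freedom, while every other pair within a group had at least 23.6. They were counted as labelled, as 2 libraries, but repeat preparations of 1 rat could give such a value too, and their origin remains unknown. Leaving out either changed the call of no member. Replicate numbers follow the titles, and the descriptions of some libraries labelled TAA control give other numbers.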

How the data were processed

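Poly(A) RNA of rat LSECs was sequenced from strand-specific libraries. STAR mapped the reads (build Rnor_6.0), and the authors deposited RSEM expected counts, which are estimated and not normalized, for 32623 genes in each of 32 libraries. The submitters' processing notes also name FastQC and Trim Galore, and versions are not given in the sources used here. RSEM divides reads that fit several genes, so that 10.3% to 12.4% of a library's genes had a count that was not whole, and counts were rounded.

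Fits used limma 3.58.1 and edgeR 4.0.16, alternatives also DESeq2 1.42.0 (R 4.3.3), and matplotlib 3.10.9 (Python 3.11.15) drew the figures. After the study's methods, limma-voom with TMM factors was run for each of 7 comparisons on its own groups alone, without covariates, on genes kept by filterByExpr. A gene was called at an adjusted p (Benjamini-Hochberg) under 0.05 and a fold change above 1.5. log2 CPM used a pseudocount of 0.5. The 3 genes most like each member were sought among genes with 1 proper symbol and a mean log2 CPM of at least 3, where leaving out clone and provisional names was a choice made after the data were seen. All 9 members are named whatever their values, 10 annexin partners were listed for naming, and the partner and marker lists are counted in whole. Members and lists were chosen with earlier results of these data known. The fits were also run on data simulated for cirrhosis against healthy alone, with far fewer genes changed than were called here. That run covered no other comparison. Promoters come from RefSeq (GRCr8).

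Alternatives were edgeR's quasi-likelihood test, DESeq2, its size factors, library size scaling, no low-count filter or one at 1 CPM, unadjusted p-values, no fold threshold, 1 fit over the 4 CCl4 groups, a block on replicate number, and leaving out each library. Depth and the number of libraries limit the precision. Gene positions and lengths of Rnor_6.0 were not used here.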

Additional observations from a re-analysis of the deposited data

Results flagged for a closer look

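A library stood far from the rest of its group in 5 of the 54 groups of a member's levels that were looked at, by Dixon's test at the 95% level, where chance gives about 2.7. Anxa3 was at 21.8 CPM in the labelled control replicate 4, with the next library at 43.2 CPM, and its difference in the TAA experiment was called neither with nor without this library. Anxa4 was at 78.1 CPM in fibrosis replicate 12, with the next at 66.4 CPM. Anxa6 was at 37.0 CPM in cirrhosis replicate 3, with the next at 52.0 CPM. Anxa7 was at 119.5 CPM in cirrhosis replicate 6, with the next at 87.8 CPM, and Anxa11 at 146 CPM in healthy replicate 6, with the next at 238 CPM. Of the calls of these genes against other groups, 1 was lost without the library concerned, that of Anxa4 in fibrosis against healthy (0.58, limma-voom adjusted p = 0.00213), which went under the fold threshold.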

How the results depend on the processing

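The number of members called stayed within 1.5 times the main count in all 7 comparisons under every alternative. Across the alternatives that left out no library, the differences of members kept their direction and their side of the thresholds 513 times, gained a call 13 times, lost one 12 times and turned sign 16 times, the last only for differences that were not called. Anxa2 in acute against healthy was -0.051 with the replicate block, Anxa5 in fibrosis against healthy 0.084 with library size scaling, and Anxa4 in cirrhosis against healthy -0.0084 in 1 fit over the 4 CCl4 groups. Anxa8 in cirrhosis against healthy was -0.34 with edgeR, -0.33 with DESeq2 and -0.025 with the block. Anxa4 in fibrosis against acute was -0.052, -0.0089 and -0.072 with library size scaling, without the low-count filter and in 1 fit. Anxa5 in cirrhosis against fibrosis was 0.0067 with DESeq2 size factors, 0.0035 without the filter and 0.00023 with the filter at 1 CPM. Anxa11 in the TAA experiment was -0.016 with DESeq2, -0.011 with its size factors, -0.029 with library size scaling and -0.0045 with the filter at 1 CPM. With 1 library left out, signs turned for Anxa4 (-0.063 to 0.056) and Anxa8 (-0.25 to 0.82) in cirrhosis against healthy, Anxa3 (-0.19 to 0.036) and Anxa4 (-0.049 to 0.045) in fibrosis against acute, Anxa5 in cirrhosis against fibrosis (-0.12 to 0.039) and Anxa11 in the TAA experiment (-0.045 to 0.058). The cause was not tested.

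Of all genes, 1529 were called between fibrosis and acute, 2826 without the fold threshold, 746 in 1 fit over the 4 CCl4 groups, and 1011 to 2166 with 1 library left out, the fewest without acute replicate 1. In the TAA experiment 3970 genes were called, and 7139 without the fold threshold. Calls of Anxa4 in cirrhosis against acute (-0.63) went under the fold threshold with DESeq2 (-0.57), its size factors (-0.58), without the filter (-0.55) and without cirrhosis replicate 2 (-0.55) or 3 (-0.58), and those of Anxa2 (0.61) with library size scaling (0.52) and without cirrhosis replicate 6 (0.49) or acute replicate 2 (0.58).

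Healthy, acute and cirrhosis libraries share replicate numbers from the titles but come from different rats, and the numbers did not pair them. Deviations of libraries with the same number from their group means correlated by 0.03 to 0.19 over 4 pairs of acute and healthy, -0.24 to 0.29 over 6 pairs of cirrhosis and healthy, and -0.09 to 0.09 over 4 pairs of cirrhosis and acute. An acute library correlated best with the healthy library of its own number in 2 of 4 pairs. For cirrhosis libraries this held in 0 of 6 pairs with healthy and 0 of 4 with acute ones. With the replicate block, 5 members were called in acute against healthy (6 without it), 4 in cirrhosis against healthy (4) and 7 in cirrhosis against acute (8), and 10924, 7275 and 10180 of all genes (10502, 7660 and 10399). Anxa4 in acute (0.53) and Anxa2 in cirrhosis against acute (0.40) went under the fold threshold. The libraries of the TAA experiment and of fibrosis share no numbers with those they were compared with.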

Other observations

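Anxa9, Anxa10 and Anxa13 were in the tables too, at low levels. Anxa9 had at most 7 counts in any library and was tested in no comparison. Anxa10 was 1.44 ± 0.700 CPM in healthy (SD, n = 6), 0.0874 ± 0.0592 CPM in acute (n = 5), 0.397 ± 0.183 CPM in fibrosis (n = 5) and 1.63 ± 0.583 CPM in cirrhosis LSECs (n = 6). It was lower than healthy by -3.82 in acute and -1.71 in fibrosis on the log2 scale (limma-voom adjusted p = 3.75e-05 and 0.00486), on counts of 2 to 7 in the acute libraries, and was 1.65 higher in the libraries labelled TAA control than in those labelled control (limma-voom adjusted p = 0.00299), the opposite sign to the members called there. Anxa13, with at most 25 counts in any library, was higher in cirrhosis than in fibrosis (2.54, limma-voom adjusted p = 0.00213) and lower in the libraries labelled TAA control (-2.38, limma-voom adjusted p = 0.000939).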
